A study of Mus musculus with 10 samples.

Results

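The genes described here are markers of endothelium, the cell layer that lines blood vessels, and of the smooth muscle and pericytes that wrap it. They were measured in tissue that holds the pharyngeal arch arteries. A list of 33 genes was taken by gene symbol, out of 12393 genes that had a symbol of their own on the array, and each gene was read on its brightest probe set by the mean over all 10 arrays. Of the 33 genes, 32 were on the array, with 48 of its 22626 probe sets, and Mmrn2 was not among the named probe sets. The tissue was microdissected hindbrain with pharyngeal arches 1-4 of mouse embryos at E10.5. There were 5 wildtype embryos and 5 embryos homozygous for a gene trap in Fbln1, called null below, all from matings of heterozygous carriers. The product of Fbln1 is fibulin-1, which cells secrete into basement membranes, and its loss is known to cause vessel defects. The gene trap acts in every cell, so the embryos carry the loss in vessels and in all tissue around them. Strain background and litter are not given in the sources used here.

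Vessels of the arches form when endothelial cells assemble into tubes under VEGF, which acts through the receptor Kdr, and then mature under the angiopoietins, which act through Tek. ETS and SoxF transcription factors, among them Erg, Fli1, Sox7, Sox17 and Sox18, set the endothelial programme. Pdgfb from the endothelium draws in mural cells that carry Pdgfrb, and these switch on contractile genes such as Acta2 and Tagln as the wall forms. Because the tissue was measured in bulk, fewer vessel cells and less RNA per vessel cell cannot be told apart.

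Values are log2 signals per probe set, in which a step of 1 is a doubling. They allow a comparison between arrays for the same probe set, not between genes. A probe set was tested if its signal was over log2 4 on at least 5 arrays, which 9801 probe sets were (43.3%). In signal the arrays differed little as a whole, with medians of 3.20 to 3.29 and 9618 to 9943 probe sets over log2 4. Correlations across the probe sets tested were 0.960 to 0.991. The log2 ratio of the actin probe sets, a measure of RNA quality, was less even. It was at most 2.38 in wildtype arrays, and higher in null replicates 3, 4 and 5 (2.59, 2.45 and 2.85). Null replicates 7 and 8 (2.33 and 2.19) lay within the wildtype range. The labels do not name litters, and p-values cover no more than the spread between the samples. Fbln1 itself, read on a dim probe set, read 3.83 to 5.11 in wildtype and 2.52 to 2.85 in null arrays, without overlap. The means were 4.55 ± 0.50 and 2.66 ± 0.13 (SD, n = 5 each, two-sided exact permutation p = 0.00794, the lowest this design allows). This probe set was over log2 4 on 4 arrays, so it was under the filter and not among those tested. Fitted by limma all the same, it had an adjusted p of 0.0715, over the adjusted threshold applied to the listed genes below. The second Fbln1 probe set, with means of 3.53 ± 0.53 in wildtype and 2.41 ± 0.27 in null arrays (SD, n = 5 each), did not overlap either (adjusted p by limma 0.303).

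Most of the genes that define endothelium were too dim to compare. Of the 32 genes on the array 12 passed the filter (37.5%), and 19 stayed at or under log2 4 on every array. The 12 were Emcn, Cd34, Egfl7, Kdr, Flt1, Tek, Aplnr, Sox7, Fli1, Acta2, Tagln and Pdgfrb. Pecam1, the adhesion molecule most used to mark endothelium, read 2.38 to 3.16 over the 10 arrays. Cdh5, the cadherin of endothelial junctions, read 2.27 to 2.72 on its brighter probe set, and Erg read 2.27 on every array. So the endothelial label rests here on Emcn, Cd34, Egfl7 and the receptors Kdr, Flt1 and Tek, while its defining junction genes and Erg were at the bottom of the scale. No fold is given for listed genes under the filter.

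**Figure D1:**
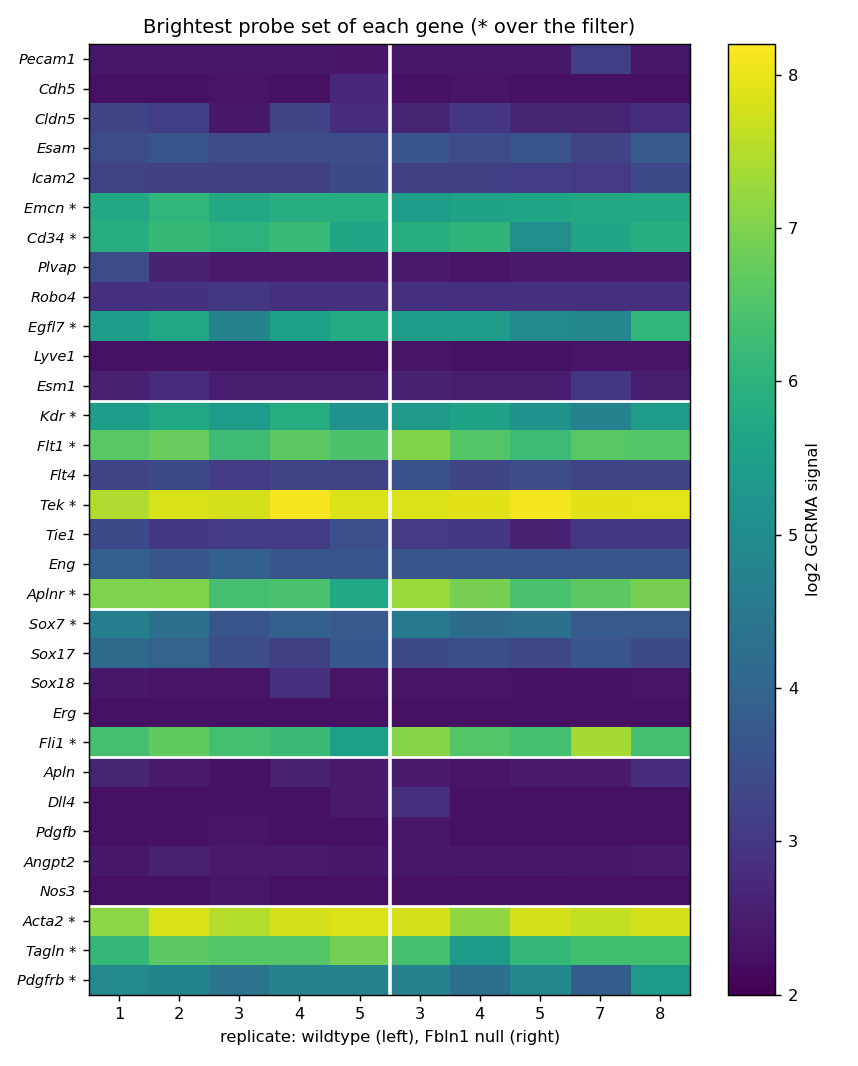
Log2 GCRMA signal (colour) of the brightest probe set of each of the 32 genes (rows, grouped from top to bottom as junction and surface proteins, receptors, transcription factors, ligands with Nos3, and mural genes) in the 5 wildtype and 5 null arrays (columns, by replicate number). Genes with an asterisk passed the filter, colours compare arrays within a row, and most rows without one stay dark in all 10 arrays.

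None of the 12 genes passed the test between genotypes. By limma 0 of 12 had an adjusted p under 0.05 over all probe sets tested, against 2 of 9801 in the whole table (0.0204%). At an unadjusted limma p under 0.05 stood 1 of 12, Tagln, lower in null tissue, which is 8.33% against 12.4% of all probe sets (8.56% lower in null tissue). By the exact permutation test over samples, which uses the values of 1 probe set alone, 1 of 12 had an unadjusted p under 0.05 too, but that gene was Emcn, also lower, against 11.4% of all probe sets (7.68% lower). On 0 of the 12 did the genotypes separate without overlap, against 2.77% of all probe sets. The null mean was higher for 6 genes and lower for 6, against 56.9% lower over all probe sets, and the median log2 fold change was -0.05, against -0.04 over all. These shares lay near or under the background of the table. The 12 fold changes ran from -0.45 for Tagln to 0.51 for Fli1.

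**Figure D2:**
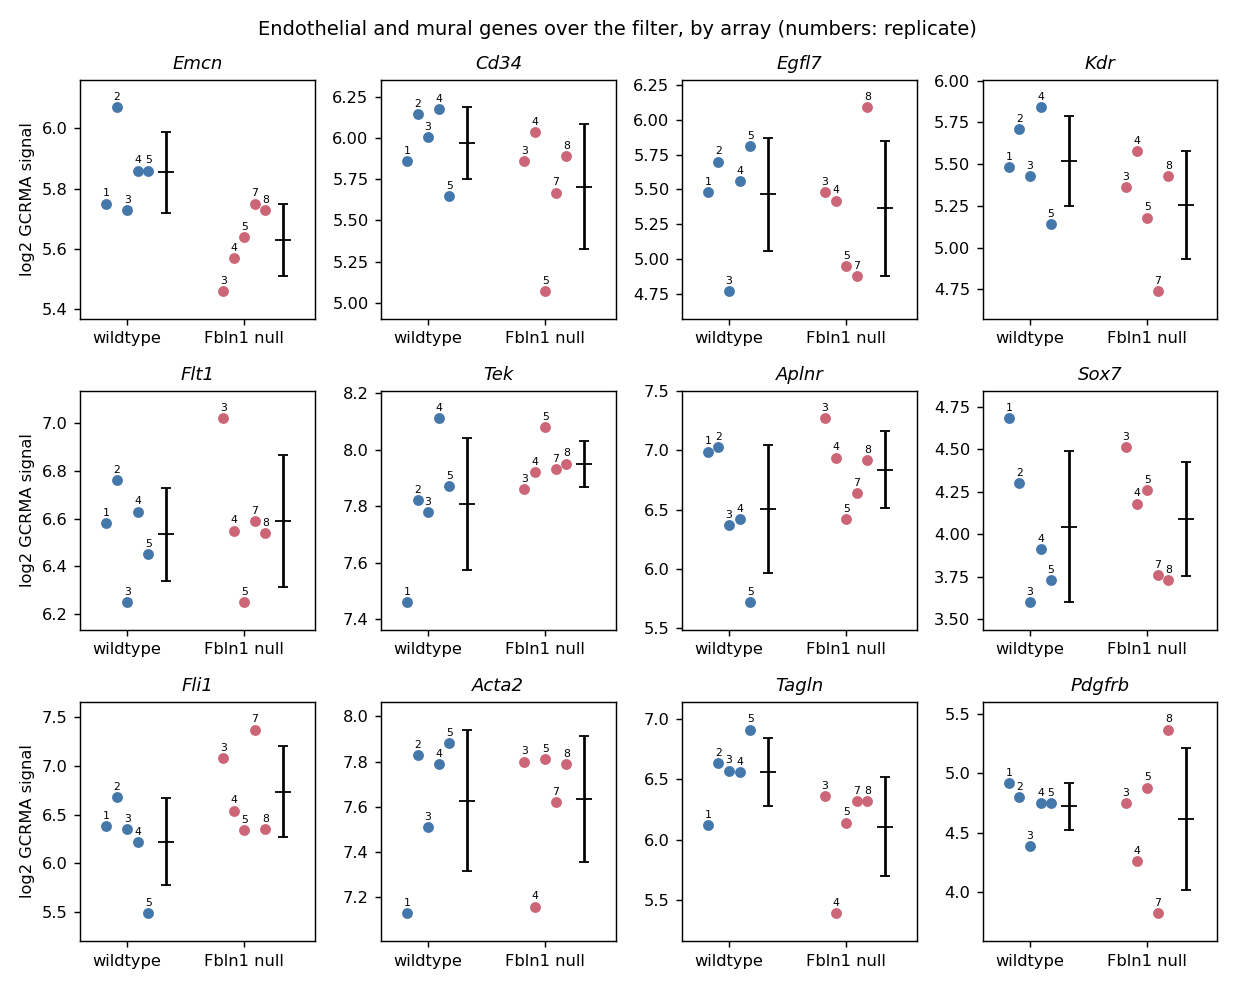
Log2 GCRMA signal of the 12 genes over the filter in each array (points, with replicate numbers) by genotype, with the mean and SD of the 5 arrays (black bars) and a separate vertical axis for each gene. In every panel the wildtype and null points overlap, most narrowly for Emcn, where the highest null array reads 5.75 and the lowest wildtype array 5.73.

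Of the junction and surface proteins, the 3 over the filter all had lower means in null tissue and 0 passed the test. Emcn, a sialomucin of the endothelial surface, had a narrow spread within each genotype. Its signal in wildtype replicates 1, 2, 3, 4 and 5 was 5.75, 6.07, 5.73, 5.86 and 5.86, and in null replicates 3, 4, 5, 7 and 8 it was 5.46, 5.57, 5.64, 5.75 and 5.73. The null arrays were the low ones, with 4 of 5 under the lowest wildtype array, though null replicate 8 and wildtype replicate 3 both round to 5.73. Null replicate 7 was level with wildtype replicate 1. The lowest null arrays, replicates 3, 4 and 5, were those with actin ratios above all wildtype arrays (2.59, 2.45 and 2.85). Null replicates 7 and 8 had ratios within the wildtype range (2.33 and 2.19). The means were 5.85 ± 0.13 (SD, n = 5) and 5.63 ± 0.12 (SD, n = 5), a log2 fold change of -0.23 with a 95% interval of -0.48 to 0.02 (SE 0.12, adjusted p by limma 0.462, two-sided exact permutation p = 0.0159, not adjusted for the number of genes). Without wildtype replicate 3 or null replicate 7 the difference was -0.26 each time, and the unadjusted limma value stayed over 0.05. The genotypes then did not overlap on Emcn, but these are the arrays that made the overlap. The nearest arrays left were level as printed, at 5.75 without wildtype replicate 3 and at 5.73 without null replicate 7. With array weights the difference was -0.29 and passed an unadjusted 0.05 by limma, with an adjusted p of 0.265. It was smaller, and did not pass, without wildtype replicate 2 (-0.17), with quantile normalization between arrays (-0.16) and with the ratio of the actin probe sets, a measure of RNA quality, as a covariate (-0.19).

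The stretch of 250 bases before the Emcn start site, from RefSeq (GRCm38.p6, chr3:137340828-137341077, plus strand), is shown because Emcn came nearest to separating the genotypes among the endothelial genes. Capitals mark AGGAAG, a form of the GGAA core that ETS factors such as Erg and Fli1 bind, read on either strand.
Emcn: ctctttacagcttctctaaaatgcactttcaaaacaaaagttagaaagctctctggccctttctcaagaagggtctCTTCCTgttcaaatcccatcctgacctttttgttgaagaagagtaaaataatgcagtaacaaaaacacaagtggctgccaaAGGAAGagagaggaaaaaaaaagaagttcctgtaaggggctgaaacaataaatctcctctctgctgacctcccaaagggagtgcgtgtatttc
The 2 matches begin 174 and 93 bases before the start. At least 1 match stood in the same window of 9 of the 16 listed genes that the promoter table holds, and in 29.5% of all 32851 promoters in it. The count is of genes, with a match in any promoter held for them, and the percentage is of promoters, so the units differ. A match is a description of these letters and not a bound site.

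Cd34, a sialomucin of endothelial and blood progenitor cells, had wildtype signals of 5.86, 6.15, 6.01, 6.18 and 5.65 in replicates 1 to 5 and null signals of 5.86, 6.04, 5.07, 5.67 and 5.89 in replicates 3, 4, 5, 7 and 8. Null replicate 5 stood low and the other null arrays lay within the wildtype range. The log2 fold change was -0.26, with a 95% interval of -0.66 to 0.14 (SE 0.18, adjusted p by limma 0.601). It was -0.10 without null replicate 5 and -0.04 with the actin ratio as a covariate. Egfl7, a matrix protein that endothelium secretes, had 4 probe sets, of which 3 passed the filter. The brightest read 4.77 to 5.81 in wildtype and 4.88 to 6.09 in null arrays, with a log2 fold change of -0.10, with a 95% interval of -0.63 to 0.44 (SE 0.25, adjusted p by limma 0.911). The next 2 had -0.23 (SE 0.19) and 0.01 (SE 0.10), and neither passed the test. The fourth, at 3.80 to 4.28, was under the filter. The brightest is of a type that can match transcripts of several genes.

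The remaining junction and surface genes were under the filter in both genotypes. Esam, an adhesion molecule of junctions, read 3.27 to 3.77 over the 10 arrays, Icam2, a ligand of leukocyte integrins, 3.06 to 3.39, and Cldn5, a tight junction claudin, 2.43 to 3.28. Robo4, an endothelial roundabout receptor, read 2.83 to 3.0, and Plvap, the protein of fenestral diaphragms, read 2.33 to 2.62 apart from 3.42 in wildtype replicate 1. Esm1, a proteoglycan of sprouting tip cells, read 2.48 to 2.99 and Lyve1, the hyaluronan receptor of lymphatic endothelium and some macrophages, 2.29 to 2.36. Such signals lie where the normalization pulls dim probe sets to a floor.

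Of the 7 receptors of vascular ligands, 4 passed the filter and 0 passed the test, with 3 higher and 1 lower null mean. Kdr, the main signalling receptor for VEGF, had wildtype signals of 5.48, 5.71, 5.43, 5.84 and 5.14 in replicates 1 to 5 and null signals of 5.36, 5.58, 5.18, 4.74 and 5.43 in replicates 3, 4, 5, 7 and 8. Null replicate 7 was the single array outside the wildtype range. The log2 fold change was -0.26, with a 95% interval of -0.65 to 0.12 (SE 0.18, adjusted p by limma 0.588), and it was -0.13 without null replicate 7. Flt1, a VEGF receptor that also acts as a trap for the ligand, read 6.25 to 6.76 in wildtype and 6.25 to 7.02 in null arrays, with a log2 fold change of 0.06 (SE 0.15, 95% interval -0.28 to 0.39). Its 2 dimmer probe sets read 2.25 to 2.56 and 2.34 to 2.38, so a single Flt1 probe set carried signal.

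Tek, the angiopoietin receptor, had the smallest spread of the 12 genes among null arrays (SD 0.08, n = 5). It read 7.46, 7.82, 7.78, 8.11 and 7.87 in wildtype replicates 1 to 5 and 7.86, 7.92, 8.08, 7.93 and 7.95 in null replicates 3, 4, 5, 7 and 8. All 5 null arrays lay inside the wildtype range, which wildtype replicates 1 and 4 set. The log2 fold change was 0.14, with a 95% interval of -0.15 to 0.42 (SE 0.13, adjusted p by limma 0.719), and without wildtype replicate 1 it was 0.05. Tie1, the co-receptor of Tek, was under the filter, at 3.0 to 3.51 in wildtype and 2.61 to 3.02 in null arrays. When all probe sets were tested without a filter, Tie1 was lower in null tissue at an unadjusted 0.05 by limma (adjusted p = 0.687), as were 7.11% of all probe sets in either direction, at a level where values are compressed.

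Aplnr, the receptor for apelin, gave different directions on its 2 probe sets. The brighter read 6.99, 7.03, 6.37, 6.42 and 5.72 in wildtype replicates 1 to 5 and 7.27, 6.94, 6.42, 6.64 and 6.92 in null replicates 3, 4, 5, 7 and 8. Wildtype replicate 5 was low on it, and 4 of the 5 null arrays lay inside the wildtype range. Its log2 fold change was 0.33, with a 95% interval of -0.19 to 0.86 (SE 0.24, adjusted p by limma 0.621), while that of the dimmer was -0.11 (SE 0.20, 95% interval -0.55 to 0.32). Averaging the probe sets gave 0.11 (limma adjusted p = 0.862), and without wildtype replicate 5 the brighter gave 0.14. Without wildtype replicates 1 and 2, a choice made after the data were seen, the brighter gave 0.67 and passed an unadjusted 0.05 by limma, with an adjusted p of 0.357. The remaining receptors, Eng, a co-receptor for TGF-beta and BMP ligands, and Flt4, the receptor for VEGF-C, were under the filter at 3.64 to 3.91 and 3.11 to 3.54.

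Of the 5 endothelial transcription factors, Fli1 and Sox7 passed the filter and 0 passed the test. Fli1, an ETS factor of endothelium and blood that also marks neural crest mesenchyme, had the largest positive fold change of the 12 genes. Its signals were 6.38, 6.68, 6.35, 6.22 and 5.49 in wildtype replicates 1 to 5 and 7.08, 6.54, 6.34, 7.37 and 6.35 in null replicates 3, 4, 5, 7 and 8. Null replicates 3 and 7 lay above all wildtype arrays, wildtype replicate 5 lay below all others, and the remaining 7 arrays were mixed. The means were 6.23 ± 0.45 (SD, n = 5) and 6.74 ± 0.47 (SD, n = 5), a log2 fold change of 0.51 with a 95% interval of -0.03 to 1.05 (SE 0.25, adjusted p by limma 0.436, two-sided exact permutation p = 0.159). Without wildtype replicate 5 the fold change was 0.33 and without null replicate 7 it was 0.35. Without wildtype replicate 2 or null replicate 5 or 8 it was 0.60 to 0.62 and passed an unadjusted 0.05 by limma, as did 0.55 with quantile normalization between arrays (adjusted p = 0.395). The dimmer Fli1 probe set read 2.36 to 3.0 in wildtype and 2.35 to 2.36 in null arrays, so its null arrays were not the higher ones, at floor values.

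Sox7 was at the edge of the filter, over log2 4 on 5 arrays. It read 4.68, 4.30, 3.60, 3.91 and 3.73 in wildtype replicates 1 to 5 and 4.51, 4.18, 4.26, 3.76 and 3.73 in null replicates 3, 4, 5, 7 and 8. High and low arrays occurred in both genotypes, and the log2 fold change was 0.05, with a 95% interval of -0.43 to 0.53 (SE 0.22, adjusted p by limma 0.963). With values under log2 4 raised to 4 it was -0.0049. The sister factors of the SoxF group were dimmer, with Sox17 at 3.18 to 4.15 and Sox18 at 2.31 to 2.86.

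None of the endothelial ligands could be compared. Apln, the ligand of Aplnr, read 2.31 to 2.79 over the 10 arrays, Dll4, the Notch ligand of arterial and tip cells, 2.28 to 2.83, Pdgfb, the recruiter of mural cells, 2.28 to 2.41, and Angpt2, a context-dependent ligand of Tek, 2.41 to 2.57. Nos3, the nitric oxide synthase of endothelium, read 2.27 to 2.39. All 5 were under log2 4 on every array. The second probe sets of Dll4, Pdgfb, Cdh5, Lyve1, Flt4, Eng and Sox17 were dim too, at 3.07 or less on every array.

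**Figure D3:**
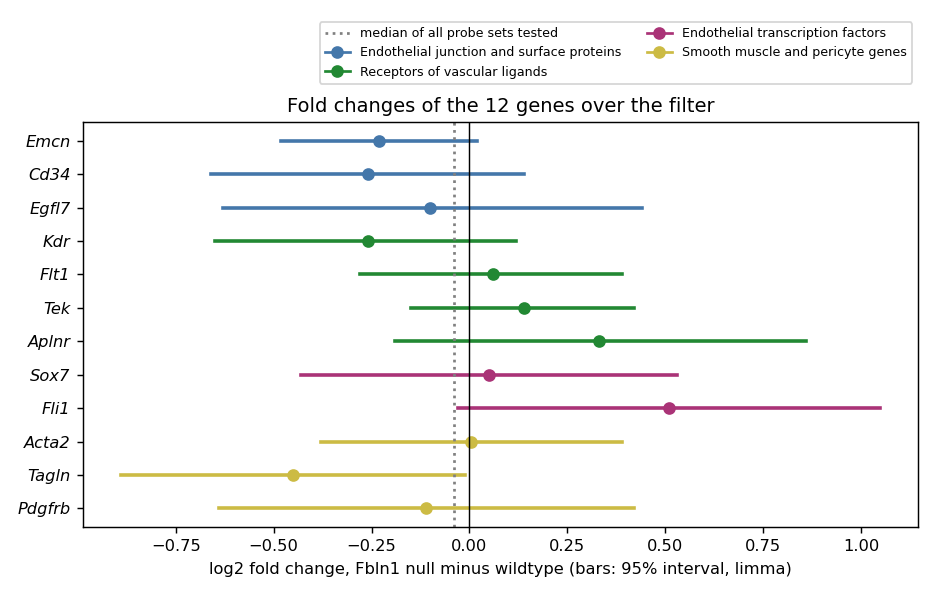
Log2 fold change of null minus wildtype (points) with its 95% interval from limma (bars) for the 12 genes over the filter, coloured by role, with the median of all probe sets tested as a dotted line. The interval of Tagln alone, -0.89 to -0.01, does not reach 0, and its adjusted p is 0.389.

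The mural genes Acta2, Tagln and Pdgfrb all passed the filter. Tagln, the actin-binding protein transgelin of early smooth muscle, had the most negative fold change of the 12 genes. It read 6.12, 6.63, 6.57, 6.56 and 6.91 in wildtype replicates 1 to 5 and 6.36, 5.39, 6.14, 6.32 and 6.32 in null replicates 3, 4, 5, 7 and 8. Null replicate 4 was the lowest of the 10 arrays, wildtype replicate 1 lay below the null arrays other than 4, and the other 4 wildtype arrays lay above all null arrays. The means were 6.56 ± 0.28 (SD, n = 5) and 6.11 ± 0.41 (SD, n = 5), a log2 fold change of -0.45 with a 95% interval of -0.89 to -0.01 (SE 0.20, adjusted p by limma 0.389, two-sided exact permutation p = 0.0556). Without null replicate 4 it was -0.27, and without that array, wildtype replicate 2, 3, 4 or 5 or null replicate 5 it no longer passed an unadjusted 0.05 by limma. Without wildtype replicate 1, the array that made the overlap, the genotypes did not overlap on Tagln and the fold change was -0.56 (adjusted p by limma 0.333).

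Acta2, the smooth muscle actin, did not show a shift. It read 7.13, 7.83, 7.51, 7.79 and 7.88 in wildtype replicates 1 to 5 and 7.80, 7.16, 7.81, 7.62 and 7.79 in null replicates 3, 4, 5, 7 and 8, on a probe set of a type that can match transcripts of several genes. Wildtype replicate 1 and null replicate 4 were low and the other 8 arrays lay close together. The log2 fold change was 0.0042, with a 95% interval of -0.38 to 0.39 (SE 0.18, adjusted p by limma 0.996), with a sign that depended on which arrays were used. The dimmer Acta2 probe set stayed at 2.27 to 2.41.

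The promoter of Acta2 is shown because Acta2 and Tagln are textbook targets of the serum response factor SRF and were lowest in the same arrays, wildtype replicate 1 and null replicate 4. The 250 bases before the Acta2 start site are from RefSeq (GRCm38.p6, chr19:34255374-34255623, minus strand, written in the gene's direction). Tagln is not printed because the promoter table does not hold it. Capitals mark CArG boxes, the element SRF binds, with at most 1 G or C allowed among the inner 6 letters, a pattern that reads the same on both strands.
Acta2: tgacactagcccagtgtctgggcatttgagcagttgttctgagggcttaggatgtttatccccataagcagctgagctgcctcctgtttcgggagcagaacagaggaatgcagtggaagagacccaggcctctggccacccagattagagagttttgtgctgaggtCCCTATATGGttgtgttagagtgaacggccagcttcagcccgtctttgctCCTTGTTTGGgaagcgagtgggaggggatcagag
The 2 matches begin 84 and 34 bases before the start. Such a match stood in 8.59% of all 32851 promoters of the table, and in 4 of the 16 listed genes it holds, Acta2, Egfl7, Eng and Kdr. With no G or C allowed inside the box the share of all promoters was 1.47% and 0 of the 16 had a match. Here too the counts are of genes and the percentages of promoters. A match is not a bound site, and a part of SRF in the Acta2 and Tagln values was not tested.

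Set against Acta2 in the same array, Tagln was lower in every null array. The log2 signal of Tagln minus that of Acta2 was -1.01, -1.20, -0.94, -1.23 and -0.97 in wildtype replicates 1 to 5 and -1.43, -1.77, -1.67, -1.29 and -1.47 in null replicates 3, 4, 5, 7 and 8. The genotypes did not overlap, and the null mean was lower by 0.46, from -1.07 ± 0.13 to -1.53 ± 0.19 (SD, n = 5 each), where only the change between arrays can be read. This pair was chosen after its values were seen, so no test is given. Of the 66 pairs among the 12 genes, 1 separated the genotypes in this way (1.52%), and so did 37 of the 9800 other probe sets when set against Acta2 (0.378%), 34 of them lower in null tissue (0.347%). With quantile normalization the genotypes overlapped, with a difference of -0.43, a lowest wildtype array of -1.27 and a highest null array of -1.22. With 1 array left out the difference was -0.51 to -0.40.

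**Figure D4:**
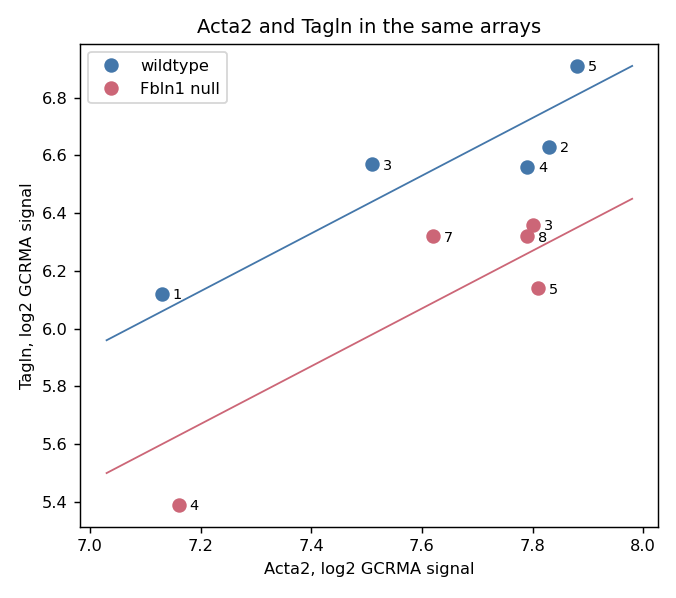
Log2 GCRMA signal of Tagln against Acta2 in the 5 wildtype and 5 null arrays (points, with replicate numbers), with lines at the mean Tagln minus Acta2 difference of each genotype. Wildtype replicate 1 and null replicate 4 are low for both genes, and each null point lies further below the wildtype line than any wildtype point does.

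Pdgfrb, the receptor that marks pericytes and much of the mesenchyme, varied more among null than among wildtype arrays. It read 4.92, 4.80, 4.39, 4.75 and 4.75 in wildtype replicates 1 to 5 and 4.75, 4.26, 4.88, 3.82 and 5.37 in null replicates 3, 4, 5, 7 and 8. Null replicate 8 lay above and null replicates 4 and 7 below all wildtype arrays. The log2 fold change was -0.11, with a 95% interval of -0.64 to 0.42 (SE 0.24, adjusted p by limma 0.899), and its dimmer probe set, with means of 3.45 and 3.46, was under the filter.

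The genes of the lists that follow are to be read against the 12.4% of all probe sets past an unadjusted p of 0.05. Of 25 further smooth muscle and pericyte genes on the array 11 passed the filter, with 5 higher and 6 lower null means, 0 past an unadjusted p of 0.05 and a median log2 fold change of -0.17. The 3 with the smallest p had lower means. Cald1, the actin-binding caldesmon, had -0.27 (SE 0.15), Tpm2, a tropomyosin, -0.33 (SE 0.20) and Srf itself -0.23 (SE 0.17), with limma adjusted p-values of 0.499 to 0.635. Cnn1 and Myh11, contractile genes of mature smooth muscle, read at most 2.27 and 2.72 on any array.

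Acta2 and Tagln are also expressed in the early heart, so heart markers are given beside them. Of 16 genes of heart and outflow tract 5 passed the filter, with a median log2 fold change of -0.06 and 0 past an unadjusted p of 0.05. The smallest p-values were those of Myl4, an atrial myosin light chain, at -0.33 (SE 0.19), Isl1, a factor of heart progenitors and of cranial neurons, at 0.12 (SE 0.16) and Actc1, the cardiac actin, at -0.12 (SE 0.17). The summed linear signal of the 5 was 1110 to 1630 in wildtype and 1330 to 1690 in null arrays. Isl1 weighed most in that sum, with a wildtype mean of 10.24 against 6.58 for Actc1, the next. The sum is therefore no measure of heart cells alone. Myh6, Nppa and Nkx2-5 read at most 2.44, 3.09 and 2.55. The deviation of each of the 5 genes from its mean over all arrays was also taken. The median of these deviations was highest in wildtype replicate 5 (0.49), the array highest for Acta2 and Tagln. It was lowest in null replicate 4 (-0.17). The summed signal ran the other way in these arrays, at 1320 in wildtype replicate 5 and 1690, the highest of all, in null replicate 4. Wildtype replicate 1, also low for Acta2 and Tagln, had a median of 0.0048 and a sum of 1570. Of skeletal muscle and somite genes 6 of 14 passed the filter (4 higher and 2 lower means, median 0.03, summed signal 712 to 889 in wildtype and 742 to 863 in null arrays), and 1, Mylpf, a fast muscle myosin light chain, was past an unadjusted p of 0.05, lower by 0.29 in null tissue without overlap (SE 0.12, adjusted p by limma 0.339). The next 2 by p had higher null means, Myl1, a further myosin light chain, at 0.32 (SE 0.15) and Tnnt1, a slow muscle troponin, at 0.39 (SE 0.23). The muscle and somite sum was weighted in the same way to Pax3, with a wildtype mean of 9.18 against 6.08 for Mylpf, the next. The part of heart and muscle cells in the mural values was not tested.

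Blood cells share Cd34, Fli1, Lyve1 and Egfl7 with endothelium to different degrees. Of 11 erythroid markers on the array 4 passed the filter, with 3 higher null means, a median log2 fold change of 0.38, 0 past an unadjusted p of 0.05 and summed signals of 8310 to 18700 in wildtype and 11900 to 19500 in null arrays. The smallest p-values were those of Hba-x, an embryonic globin, at 0.57 (SE 0.41), Slc4a1, the red cell anion exchanger, at 0.52 (SE 0.38) and Hbb-bh1, a further embryonic globin, at 0.24 (SE 0.24). Null replicate 5 had the highest erythroid median (0.73) and the lowest median of the 3 junction and surface genes over the filter (-0.46). It also had the highest actin ratio (2.85). Of other arrays with a high erythroid median, null replicate 7 (0.43) had a junction median of -0.17 and wildtype replicate 5 (0.41) one of 0.12. Of 18 leukocyte and megakaryocyte markers 3 passed, Coro1a at -0.13, Mrc1 at 0.25 and Pf4 at 0.07, with summed signals of 129 to 260 in wildtype and 153 to 217 in null arrays, and the defining leukocyte gene Ptprc read 2.28 to 2.48. These sums were weighted to few genes as well. The leukocyte sum was weighted to Coro1a, with a wildtype mean of 6.85 against 5.25 for Pf4, the next. The erythroid sum was weighted to the globins, with a wildtype mean of 12.42 for Hbb-bh1 against 4.64 for Slc4a1. The part of blood cells in the endothelial values was not tested.

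Ligands and partners of the VEGF and angiopoietin receptors were given by a separate list of 10 genes on the array, of which 5 passed the filter. Vegfa, the ligand of Kdr and Flt1, was the 1 gene past an unadjusted p of 0.05, at 4.41 ± 0.22 in wildtype and 4.80 ± 0.32 in null tissue (SD, n = 5 each), a log2 fold change of 0.40 with a 95% interval of 0.03 to 0.76 (SE 0.17, adjusted p by limma 0.368, two-sided exact permutation p = 0.0317). Vegfd, a ligand of Flt4, had 0.21 (SE 0.18) and Nrp1, a VEGF and semaphorin co-receptor, -0.14 (SE 0.13). Vegfa and Vegfd were dim, near the log2 4 of the filter, with Vegfd means of 3.95 in wildtype and 4.16 in null tissue. The list had 2 higher and 3 lower means with a median of -0.04. Angpt1 and Angpt4, ligands of Tek, read at most 3.15 and 2.71.

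Of 27 genes of Notch, ephrin, ALK1 and chemokine signalling in vessels 13 passed the filter, with 3 higher and 10 lower null means and a median log2 fold change of -0.11. Id3, a target of BMP signalling, was the 1 gene past an unadjusted p of 0.05, at -0.41 (SE 0.18, adjusted p by limma 0.370, two-sided exact permutation p = 0.0635). Cxcl12, a chemokine, had -0.29 (SE 0.20) and its scavenger receptor Ackr3 -0.32 (SE 0.23), both with an adjusted p of 0.611. The arterial genes Gja4 and Gja5, which encode connexins, and Acvrl1, the receptor ALK1, read at most 3.48, 2.52 and 2.29. Not all arterial genes were dim. Efnb2, Hey1 and Hey2 of the same list passed the filter, with wildtype means of 8.21, 8.63 and 6.10. Their log2 fold changes were 0.15 (SE 0.28), -0.11 (SE 0.16) and 0.16 (SE 0.19).

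Among 19 further transcription factors of endothelium 10 passed the filter, with 4 higher and 6 lower means and a median of -0.07. Nr2f2, the factor of venous identity that is also broadly made in mesenchyme, was past an unadjusted p of 0.05, at 9.61 ± 0.17 in wildtype and 9.93 ± 0.13 in null tissue (SD, n = 5 each), a log2 fold change of 0.31 with a 95% interval of 0.05 to 0.58 (SE 0.12, adjusted p by limma 0.336, two-sided exact permutation p = 0.0238). Ets1, an ETS factor of endothelium and neural crest, had 0.41 (SE 0.22) and Foxc2, a forkhead factor of vessel and arch mesenchyme, -0.44 (SE 0.26).

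Of 21 genes of vessel basement membrane and elastic matrix 12 passed the filter, with 7 higher and 5 lower means and a median of 0.04. Ltbp1, which binds latent TGF-beta in the matrix, was past an unadjusted p of 0.05, at 0.34 (SE 0.14, adjusted p by limma 0.343, two-sided exact permutation p = 0.0238). Lamc1, a laminin chain, had 0.29 (SE 0.19) and Lamb1, a further one, -0.16 (SE 0.12). The other fibulin genes in the list, Fbln2, Fbln5 and Efemp1, read at most 2.35, 3.38 and 4.34 and were under the filter, and Eln, elastin, read at most 2.75. Across these 4 vessel lists and the further mural list, 0 of the 51 genes over the filter passed an adjusted p of 0.05 by limma and 4 stood at an unadjusted p under 0.05, which is 7.84% against 12.4% of all probe sets.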

How the data were processed

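RNA from 10 embryo samples was labelled with an Affymetrix 3' IVT kit and hybridised to 1 array each, per the labels' protocols. What the authors deposited is GCRMA signal on the log2 scale (the tool is named in the submitters' processing notes; its version and a genome build are not given in the sources used here). GCRMA pulls dim probe sets to a floor, so fold changes near it are compressed. Values ran from 2.22 to 14.5 on the 22626 probe sets left after 64 controls. Genes were named only from the 20380 that the platform annotation gives 1 gene symbol, not from 691 with several or 1555 without one.

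Probe sets over log2 4 on at least 5 of 10 arrays were compared with limma 3.58.1 (R 4.3.3; lmFit and eBayes, genotype alone in the model, two-sided) with Benjamini-Hochberg adjustment over all 9801. The fit was tested on simulated data with independent errors. Recovery was required there only for changes larger than any of the listed genes had, so that check does not cover changes as small as theirs. Fold changes are null minus wildtype with 95% intervals. Single values also have a two-sided exact permutation test over the 10 samples, added for the listed genes after seeing the data. Named genes were all members, and in each other list those past an unadjusted p of 0.05 and the 3 with the smallest p. Defining genes under the filter are named by level alone, chosen after their values were seen. Pax3 was added for its weight in a sum, and Efnb2, Hey1 and Hey2 beside dim arterial genes, also after their values were seen. The members and lists were chosen with earlier results of these data known. Symbols were updated and promoters read from RefSeq tables (GRCm38.p6). Replicate numbers 3, 4 and 5 occur in both genotypes. Deviations of same-numbered arrays from their group means correlated at -0.191, -0.343 and 0.158, so the numbers were not taken as pairs. Between arrays of different numbers the correlations ran from -0.399 (wildtype replicate 1, null replicate 7) to 0.496 (wildtype replicate 3, null replicate 7). The model takes no account of such likeness between arrays, and its source was not tested.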

Additional observations from a re-analysis of the deposited data

Results flagged for a closer look

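Tagln in null replicate 4 stood apart from the other null arrays, at a log2 signal of 5.39 against 6.14 to 6.36. Its gap to the nearest array was 0.766 of the range of the group, over the 0.71 that Dixon's test sets for 5 values. This was the 1 such case among 26 groups of 5 arrays checked, the 12 genes over the filter and Fbln1 in each genotype, and chance flags about 1 group in 20. Acta2 was also lowest among null arrays in replicate 4, at 7.16, as given with the mural genes. Without that array the log2 fold change of Tagln was -0.27.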

How the results depend on the processing

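No setting brought a member past an adjusted p of 0.05 by limma, and at 0.1 the count was 0 too. The count at an unadjusted p of 0.05, 1 of 12, was 2 of 32 without a filter (Emcn and Tie1; 7.11% of all probe sets), 2 with array weights (Tagln and Emcn; 14.6%), 0 with the actin probe ratio as a covariate (12.2%), 3 without wildtype replicates 1 and 2 (Aplnr, Fli1 and Tagln; 11.3%), an alternative chosen after seeing the data, and 0 to 2 with 1 array left out. With quantile normalization it was 1 again, but the gene was Fli1, not Tagln. The count of genes without overlap, 0, was 1 without a filter (Pecam1, at floor values), 1 without wildtype replicates 1 and 2 (Tagln) and 0 to 1 with 1 array left out. The median fold change, -0.05, was 0.10 with a log2 6 filter (6 genes) and -0.14 to 0.04 with 1 array left out. Fits on the arrays of numbers 3, 4 and 5 with the replicate number as a block, which share only a number, gave 4 genes at an unadjusted p of 0.05 (Aplnr, Sox7, Fli1 and Tagln; 13.4% of all probe sets), a Kdr fold change of -0.10, an Acta2 fold change of -0.14 and a Fbln1 difference of -1.65 (exact paired permutation p = 0.25, the smallest that 3 pairs allow). Null Fbln1 signals lie near the floor, so the size of that difference is not readable, and with values under log2 4 raised to 4 it was -0.58 over all 10 arrays. The sign turned for Acta2 with array weights (-0.11) and without wildtype replicates 1 and 2 (-0.09), for Sox7 with values raised to 4 (-0.0049) or the actin ratio (-0.20), and for Egfl7 with the actin ratio (0.08). With 1 array left out the ranges crossed 0 for Acta2 (-0.12 to 0.12), Egfl7 (-0.28 to 0.03), Flt1 (-0.05 to 0.14), Sox7 (-0.06 to 0.21) and Pdgfrb (-0.29 to 0.09). The causes were not tested. The number of arrays and the floor of dim probe sets limit what could be seen.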
